A study of Mus musculus with 10 samples.

Results

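Accessible chromatin was compared between cells at day 7 of neuromesodermal differentiation that had received Gdf11 for the last 24 h and cells at day 6, the state from which they were treated. The comparison took the groups labelled D7G and D6, with 2 libraries each of the 10 in the series, over all regions merged from the deposited peak lists. Of 246799 regions, 173175 held enough counts to be tested, and 19037 of the protein-coding genes had testable regions assigned to them. Each gain or loss was then read beside the change from D6 to D7 without Gdf11, which uses the same D6 libraries, and beside D7G against D7, which tests whether treated and untreated cells differed.

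All libraries were made by ATAC-seq, an assay that reads open chromatin from where a transposase can cut. The cells were of ES-Bruce4, a C57BL/6 mouse embryonic stem cell line, labelled wild type and differentiated in culture into neuromesodermal progenitors. Every group received bFgf at 10 ng/ml from the start, and CHIR99021, an inhibitor of the kinase GSK3 that activates Wnt signalling, at 5 µM from day 2. The D6 group was collected at day 6, the D7 group at day 7, and the D7G group at day 7 after 24 h of human Gdf11 at 50 ng/ml from day 6. A library was made from 50000 cells. Before differentiation the stem cells grew on mouse embryo fibroblasts, which were depleted once, so remaining fibroblasts are possible. The labels number the libraries of a group without saying whether their cultures were separate, so the tests below measure library-to-library spread, which may be technical. In such bulk libraries a smaller share of cells with an open region and a less open region in each cell cannot be told apart.

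Gdf11 is a ligand of the TGF-beta family that signals through activin receptors and the transcription factors Smad2 and Smad3. In the mouse embryo it acts in the tail bud at the change from trunk to tail formation, when posterior Hox genes come on and the axial progenitors move into the tail. Neuromesodermal progenitors feed both spinal cord and paraxial mesoderm and are kept by Wnt and Fgf signals and by Cdx factors. Cdx2 is a caudal homeobox factor of these cells, and Pmepa1 encodes a feedback inhibitor of Smad2 and Smad3 that TGF-beta signals induce.

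Most changed regions lay away from promoters, and the sequence reference here holds promoter windows only. The windows shown belong to 6 genes whose promoter region itself changed, chosen after the values were seen: 3 lost accessibility (Cdx2, Sp8 and Dbx1) and 3 gained it (Sgcd, Fhl1 and Creb5). Each is a RefSeq window of 300 bases around the gene start on GRCm38.p6 (mm10), written 5′ to 3′ on the gene's strand. Capitals mark matches, on either strand, to short motif letters taken from the authors' deposited motif tables: CTTTGA (LEF/TCF), CATTGTT (Sox), GTCTGG (Smad), TGAGTCA (AP-1) and CATAAA (Hox and Cdx).
Cdx2: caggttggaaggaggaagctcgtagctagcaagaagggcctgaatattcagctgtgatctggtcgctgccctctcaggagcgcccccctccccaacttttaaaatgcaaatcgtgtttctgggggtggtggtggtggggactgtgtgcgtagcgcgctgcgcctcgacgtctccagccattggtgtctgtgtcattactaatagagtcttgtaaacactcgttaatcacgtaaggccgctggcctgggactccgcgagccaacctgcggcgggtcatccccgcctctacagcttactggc
Sp8: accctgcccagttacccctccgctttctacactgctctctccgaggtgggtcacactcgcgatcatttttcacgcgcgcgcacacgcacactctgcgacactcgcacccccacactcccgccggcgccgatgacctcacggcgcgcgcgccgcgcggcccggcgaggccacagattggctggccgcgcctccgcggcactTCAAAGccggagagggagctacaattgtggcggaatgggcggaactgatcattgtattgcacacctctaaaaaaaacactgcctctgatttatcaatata
Dbx1: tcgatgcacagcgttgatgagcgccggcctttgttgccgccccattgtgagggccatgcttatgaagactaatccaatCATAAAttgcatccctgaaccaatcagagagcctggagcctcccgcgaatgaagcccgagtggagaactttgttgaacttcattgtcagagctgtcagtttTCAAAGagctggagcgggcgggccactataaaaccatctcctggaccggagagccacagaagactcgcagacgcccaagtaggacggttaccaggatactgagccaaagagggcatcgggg
Sgcd: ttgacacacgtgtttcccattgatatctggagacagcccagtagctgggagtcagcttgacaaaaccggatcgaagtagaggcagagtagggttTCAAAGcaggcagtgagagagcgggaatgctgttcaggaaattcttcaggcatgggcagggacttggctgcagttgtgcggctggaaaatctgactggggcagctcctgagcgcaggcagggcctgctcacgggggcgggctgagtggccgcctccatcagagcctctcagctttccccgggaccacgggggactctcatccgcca
Fhl1: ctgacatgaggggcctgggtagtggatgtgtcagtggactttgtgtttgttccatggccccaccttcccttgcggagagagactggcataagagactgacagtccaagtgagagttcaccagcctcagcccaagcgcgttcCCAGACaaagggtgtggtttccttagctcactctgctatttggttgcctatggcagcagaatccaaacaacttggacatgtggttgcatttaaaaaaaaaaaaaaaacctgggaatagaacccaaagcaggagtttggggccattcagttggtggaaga
Creb5: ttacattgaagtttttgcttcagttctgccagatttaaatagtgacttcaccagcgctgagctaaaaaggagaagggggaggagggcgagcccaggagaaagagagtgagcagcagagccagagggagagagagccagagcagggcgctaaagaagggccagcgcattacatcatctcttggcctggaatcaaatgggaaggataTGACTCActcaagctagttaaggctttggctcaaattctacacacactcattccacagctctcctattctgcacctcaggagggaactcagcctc
The Cdx2 window is chr5:147307200-147307499 on the minus strand and lies whole inside its changed region. The Sp8 window is chr12:118846983-118847282 (plus), and the Dbx1 window is chr7:49636786-49637085 (minus). The Sgcd window is chr11:47379276-47379575 (minus), the Fhl1 window is chrX:56786277-56786576 (plus), and the Creb5 window is chr6:53573124-53573423 (plus). Sp8, Dbx1 and Sgcd held 1 LEF/TCF match each, Dbx1 also held 1 Hox and Cdx match, Fhl1 1 Smad match and Creb5 1 AP-1 match. Of all 32851 promoter windows in the table, 16% held the LEF/TCF letters, 3.78% the Sox letters, 17.9% the Smad letters, 5.20% the AP-1 letters and 11.9% the Hox and Cdx letters. The Cdx2 window held none, which says only that these letters are not in it. The 2 matches in the Dbx1 window do not overlap.

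Between D6 and D7G, 4157 of 173175 tested regions (2.4%) passed edgeR's quasi-likelihood test with Benjamini-Hochberg adjustment at 0.05. Accessibility rose at 1840 regions (1.06% of those tested) and fell at 2317 (1.34%). The change was at least 2-fold at 1703 of the gains and 1848 of the losses. At every one of these regions the libraries of D6 and D7G did not overlap in CPM, the counts scaled to library size. With 2 libraries a group this largely follows from passing the test, and the share over all tested regions is not given here. The median log2 change was 1.90 at gains and -1.42 at losses, against -0.01 over all tested regions. Which direction held more regions depended on the scaling and the libraries. With library size alone 1971 rose and 1847 fell, with cyclic loess 1943 and 2157, and with DESeq2 787 and 1154. With only the 4 libraries of D6 and D7G in the fit, 3820 rose and 3458 fell. The count of 4157 regions moved with the libraries in the fit. It was lower when any 1 of the D6 and D7G libraries was left out, and 7278 when only these 4 libraries were fitted. The cause was not tested.

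Gains and losses started from different levels. The D6 and D7G levels chose these classes. Low D6 levels at gains, high ones at losses and D7 levels between them partly follow from that choice. Gained regions had a median of 1.6 and 1.5 CPM in the D6 libraries and of 5.65 and 6.46 CPM in the D7G libraries. Lost regions had a median of 9.51 and 8.48 CPM in the D6 libraries and of 3.29 and 3.34 CPM in the D7G libraries. At D7 without Gdf11, both classes lay between: gained regions had a median of 2.52 and 2.50 CPM, and lost regions 7.02 and 7.36 CPM. Regions that did not pass had a group median of 1.83 CPM at D6 and 1.88 CPM at D7G.

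**Figure D1:**
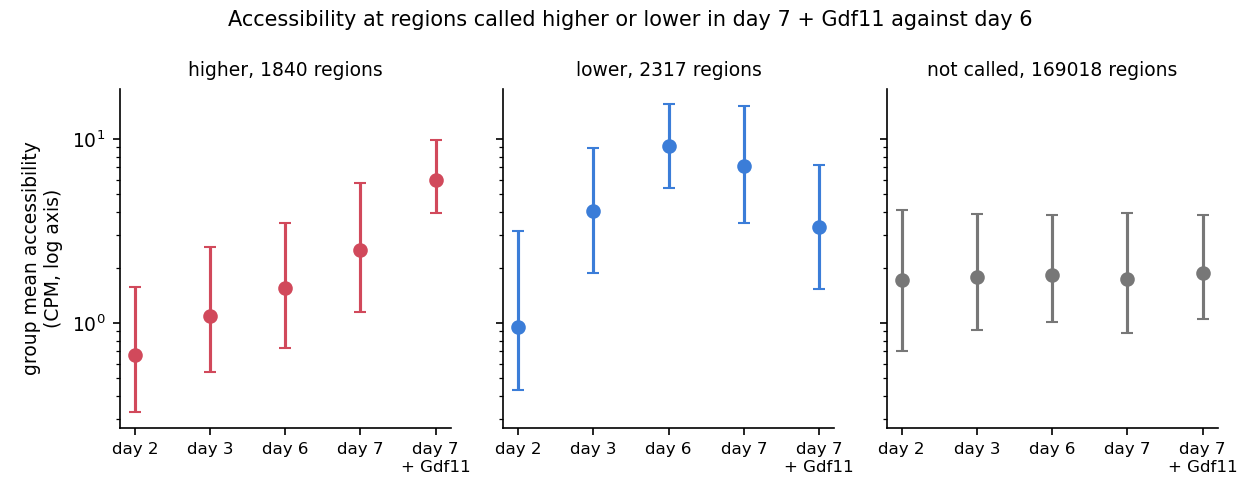
Group mean accessibility (CPM, log axis) at regions that rose, fell or did not pass in D7G against D6, by group; points are medians over regions and bars the quartiles. Gained regions go from 0.673 CPM at day 2 to 6.02 CPM in D7G, and lost regions reach 9.14 CPM at D6 and 3.32 CPM in D7G. The D6 and D7G levels chose the classes, and the other 3 groups entered only the filter, the scaling and the estimate of spread.

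The earlier days, whose levels did not enter the contrast of D7G and D6, separated the classes further. Their libraries did enter the filter, the scaling and the estimate of spread. Lost regions stood lower on these days than at D6, which partly follows from choosing regions that were high at D6. Their median was 0.954 CPM at day 2 and 4.04 CPM at day 3. A deposited peak was held by 36.4% at day 2 and by 76.8% at day 3. Gained regions were low at both days, with medians of 0.673 and 1.09 CPM, and 25.4% and 34.3% held a peak. Regions that did not pass held a peak at day 2 in 63.1% and at day 3 in 61.2%, and peaks of both days were among those merged into regions. Peaks in both D7G libraries and in neither D6 library occurred at 7496 regions, of which 977 passed the test as gains and 0 as losses. The reverse pattern occurred at 5045 regions, of which 695 passed as losses and 0 as gains.

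Changed regions lay in promoter windows in only 12 of the gains (0.674% of those on chromosomes with a promoter table) and 32 of the losses (1.43%), compared with 7.39% of the regions that did not pass. Read the other way, 0.0991% of the tested promoter regions rose and 0.264% fell. Regions more than 50 kb from any protein-coding gene made up 36.7% of the gains, 34.0% of the losses and 20.5% of the regions that did not pass. Among regions beyond 50 kb, 1.87% rose and 2.20% fell. Gains had a median width of 338.5 bp and losses of 422 bp, against 230 bp for the others. Promoter regions had a median of 17.0 CPM at D6 and those beyond 50 kb 1.51 CPM, and the part of that level in the counts was not tested.

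The promoters whose sequences stand above moved as follows. At Sgcd, which encodes a sarcoglycan of muscle membranes, the region over the printed window had 6.79 and 6.16 CPM at D6, 8.73 and 5.89 CPM at D7, and 16.4 and 17.8 CPM in D7G. It rose 2.62-fold (1.39 ± 0.25, edgeR adjusted p = 0.000317) and was higher than at D7. At Fhl1, a LIM protein gene of muscle, it went from 2.56 and 2.60 CPM to 6.75 and 7.10 CPM (edgeR adjusted p = 0.02), and at Creb5, a bZIP transcription factor gene, from 7.75 and 9.30 CPM to 15.1 and 15.6 CPM (edgeR adjusted p = 0.0345). Neither of these passed against D7. At Dbx1, a homeobox factor of spinal cord interneuron progenitors, the region fell 2.71-fold, from 10.9 and 5.20 CPM to 3.54 and 2.48 CPM (-1.44 ± 0.32, edgeR adjusted p = 0.00459), and was lower than at D7. In none of these 4 regions did the D6 and D7G libraries overlap, which held for every region that passed.

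The changes were set beside the day that passed without Gdf11. From D6 to D7, 2044 regions passed (1.18%), with 1686 higher (0.974%) and 358 lower (0.207%). Of the 1840 gains with Gdf11, 235 (12.8%) were also gains without it, which is 13.9% of the D7 gains. Of the 2317 losses with Gdf11, 96 (4.14%) were also losses without it, which is 26.8% of the D7 losses. Both counts share the D6 libraries. At the gains the median log2 change from D6 to D7 was 0.71, and at the losses it was -0.31.

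The difference itself was tested as D7G against D7, where 6464 regions passed (3.73%). Of the gains, 714 (38.8%) were also higher in D7G than in D7 (1.09% of all tested regions were), and of the losses 1208 (52.1%) were lower (2.65% of all were). Both contrasts use the same D7G libraries, so shares above those of all regions partly follow from the choice of gains and losses. The other 897 gains were neither gains from D6 to D7 nor higher in D7G than in D7, and 1021 losses were neither losses from D6 to D7 nor lower than D7, so these calls place them with neither the untreated day nor Gdf11. Both held for 6 gains and 8 losses. At 36 regions the change was opposite: accessibility rose from D6 to D7 and fell from D6 to D7G. A lower level in D7G than in D7 follows from that choice.

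Many regions that rose in the untreated day did not pass as gains with Gdf11. A region that does not pass may still have risen. Of the 1686 regions that rose from D6 to D7, 1415 did not pass with Gdf11, and 960 (56.9%) were lower in D7G than in D7, toward D6. Both of these contrasts use the D7 libraries. Their median log2 change was 1.10 without Gdf11 and 0.26 with it. Of the 358 regions that fell from D6 to D7, 262 did not pass with Gdf11 and 77 (21.5%) were higher in D7G than in D7.

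Pmepa1, the Smad feedback gene, gained accessibility with Gdf11 and not in the untreated day. Its assigned regions summed to 79.2 and 80.4 CPM at D6, 83.9 and 77.0 CPM at D7, and 129 and 137 CPM in D7G. Both treated libraries lay above all 4 untreated ones. The gene (chromosome 2, 173224458 to 173276731) rose 1.67-fold, a log2 change of 0.74 ± 0.10 (SE; edgeR adjusted p = 2.57e-05), and was higher than at D7 by 0.72. Of its 21 tested regions 1 passed, inside the gene at chromosome 2, 173253754 to 173254606. That region had 12.3 and 13.7 CPM at D6, 17.2 and 12.8 CPM at D7, and 38.4 and 46.2 CPM in D7G. It rose 3.26-fold (1.71 ± 0.22, edgeR adjusted p = 7.1e-07).

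Cdx2 (chromosome 5, 147300900 to 147307249) lost accessibility. Its regions summed to 98.4 and 94.3 CPM at D6 and 57.3 and 57.8 CPM in D7G, while D7 kept 85.7 and 93.4 CPM. The gene fell 1.68-fold (-0.74 ± 0.10, edgeR adjusted p = 2.57e-05), and D7G was also lower than D7 by a log2 difference of -0.63. Of its 10 tested regions 3 fell. The region over its promoter, chromosome 5, 147307049 to 147307628, which holds the Cdx2 sequence printed above, had 28.3 and 21.3 CPM at D6, 20.1 and 30.8 CPM at D7, and 12 and 8.83 CPM in D7G. It fell 2.39-fold (-1.25 ± 0.20, edgeR adjusted p = 5.23e-05). A region 1975 bp beyond the gene, at 147309224 to 147309569, fell 4.9-fold, from 9.19 and 6.57 CPM to 1.35 and 1.94 CPM (edgeR adjusted p = 1.73e-05), and D7 lay between with 4.86 and 4.57 CPM. The third region, inside the gene at 147304801 to 147305182, fell 2.05-fold. The calls of Cdx2 and Pmepa1 were kept under all 12 alternatives tried.

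**Figure D2:**
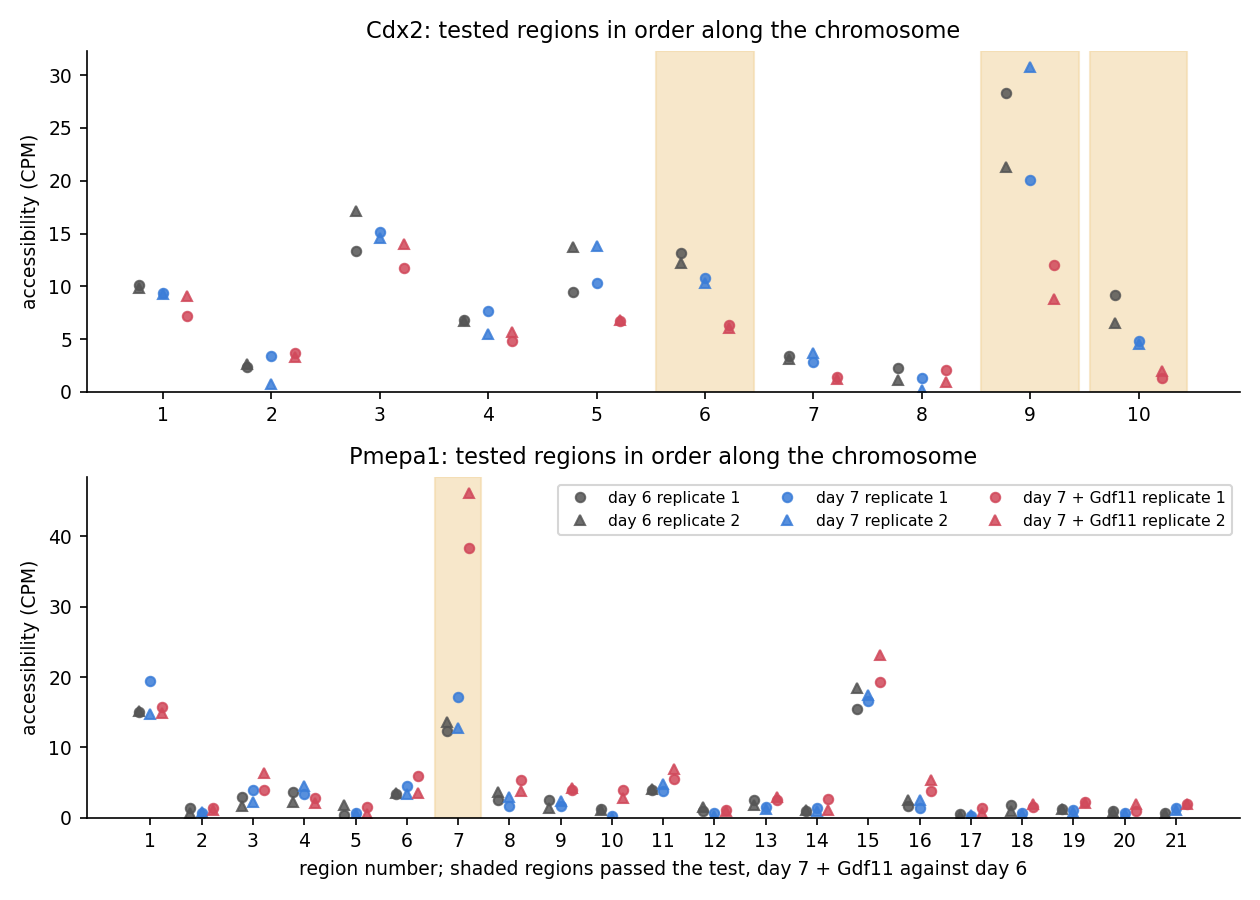
Accessibility (CPM) of each tested region assigned to Cdx2 (10 regions) and Pmepa1 (21 regions), in order along the chromosome; colours are groups, circles replicate 1 and triangles replicate 2, and shading marks regions that passed in D7G against D6. At the shaded Pmepa1 region the treated libraries stand at 38.4 and 46.2 CPM, and at Cdx2 all 3 shaded regions are lower in D7G than in D6 and D7.

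Genes were tested from the counts summed over their regions. Such a value reports accessibility and not expression, and nearness alone leaves unknown which gene a region acts on. In D7G against D6, 358 of 19037 genes passed (1.88%), with 117 higher (0.615%) and 241 lower (1.27%). The split depended on the scaling: 32.7% of the called genes were higher as reported, 57.9% with library size alone (257 higher, 187 lower), and 54.4% with cyclic loess (300 higher, 251 lower). The count was 68 without D6 replicate 1, 124 without D6 replicate 2, 111 without D7G replicate 1 and 278 without D7G replicate 2. From D6 to D7 without Gdf11, 810 genes passed (4.25%). Of the genes that rose with Gdf11, 20 also rose from D6 to D7 (17.1%, and 2.94% of the 681 genes higher at D7, 3.58% of those tested) and 58 were higher than at D7. Of those that fell, 25 also fell (10.4%, and 19.4% of the 129 genes lower at D7, 0.678% of those tested) and 160 were lower than at D7. The counts against D7 use the same D7G libraries as the calls from D6. Of the 681 genes that rose from D6 to D7, 516 (75.8%) were lower in D7G than in D7, a contrast in which 13.3% of all tested genes passed (2.05% higher, 11.2% lower) and which shares the D7 libraries.

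Gene lists of signalling pathways, cell states and Hox groups were then read, with a median log2 change over all tested genes of -0.05. Among 322 distinct list genes, 320 were tested, and 6 rose and 20 fell.

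**Figure D3:**
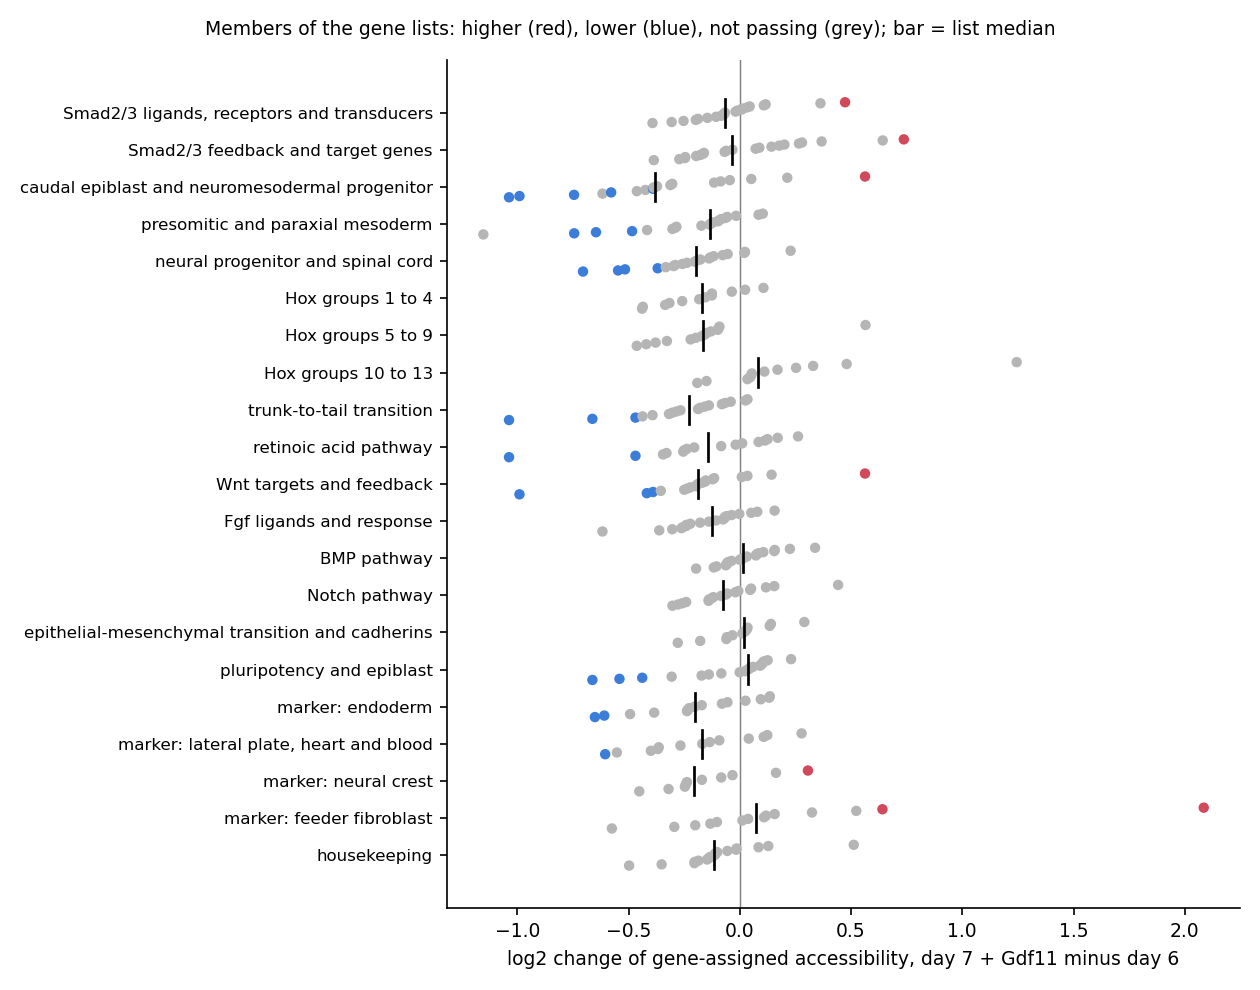
Log2 change of accessibility (D7G minus D6) of each tested gene, by list; red genes rose, blue genes fell, grey genes did not pass, and the black bar is the list median. The caudal list has the lowest median, -0.38, and the Hox groups hold no coloured point.

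Of the 21 Smad2/3 ligands, receptors and transducers, 1 rose and 0 fell, with a median of -0.07. That gene was Fst, which encodes follistatin, a secreted protein that binds activin and Gdf11. It had 61.1 and 62.5 CPM at D6 and 73.7 and 98.4 CPM in D7G (0.47 ± 0.12, edgeR adjusted p = 0.0228), and its D7 libraries had 67.7 and 77.5 CPM. The groups D6 and D7G did not overlap, but D7 and D7G did. Its call was lost without D6 replicate 1, without D6 replicate 2 and without D7G replicate 2, with an adjusted p of up to 0.389. Gdf11 itself had 75 and 76.6 CPM at D6 and 49.0 and 67.0 CPM in D7G and did not pass (-0.39, edgeR adjusted p = 0.0799).

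Of the 21 Smad2/3 feedback and target genes, 1 rose (Pmepa1) and 0 fell, with a median of -0.03. With library size alone or cyclic loess 3 rose and the median was 0.02. Single regions of this list passed in both directions, 6 higher and 7 lower of 279. A gain lay 7972 bp from Tgfbi, a matrix protein induced by TGF-beta, at chromosome 13, 56601192 to 56601614, with 2.00 and 0.958 CPM at D6, 4.95 and 3.68 CPM at D7, and 10.4 and 15.5 CPM in D7G. It rose 8.14-fold (3.02 ± 0.36, edgeR adjusted p = 1.81e-07), and it was also a gain from D6 to D7 and higher in D7G than in D7. Smad7, which encodes an inhibitory Smad, had 2 regions that rose. The one inside the gene went from 5.75 and 4.51 CPM to 12.4 and 9.69 CPM, and the one 14269 bp outside from 3.92 and 5.88 CPM to 11.8 and 10.4 CPM, and the second was also higher than at D7. At Ltbp1, which encodes a protein that binds latent TGF-beta, 4 regions fell and 1 rose.

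The 18 caudal epiblast and neuromesodermal progenitor genes held the most losses. Of them 5 fell and 1 rose, the median was -0.38, and 14 of their 207 regions (6.76%) fell, compared with 1.34% of all tested regions. The summed level of the list was 1085 and 1089 CPM at D6, 1088 and 1184 CPM at D7, and 852 and 888 CPM in D7G. Cyp26a1, the enzyme that clears retinoic acid from the tail bud, had 41.9 and 39.3 CPM at D6, 30.5 and 33.0 CPM at D7, and 21.9 and 17.5 CPM in D7G. It fell 2.05-fold (-1.04 ± 0.15, edgeR adjusted p = 7.52e-05) and was lower than at D7. Cdx1, a caudal homeobox factor, fell 1.99-fold, from 31.5 and 32.0 CPM to 17.6 and 14.2 CPM (-0.99 ± 0.16, edgeR adjusted p = 0.000252). Sp8, a zinc finger factor of the tail bud and limb, fell 1.49-fold, from 207 and 202 CPM to 133 and 141 CPM (-0.58 ± 0.09, edgeR adjusted p = 0.000115).

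At Sp8, 4 of 20 regions fell. The region over its promoter, whose sequence stands above, went from 57.0 and 54.7 CPM at D6 to 32.9 and 35.1 CPM in D7G, and D7 stayed at 52.1 and 61.0 CPM. A second region, 2887 bp from the gene, fell alike with and without Gdf11, from 22.2 and 20.1 CPM at D6 to 11.4 and 13.6 CPM at D7 and 11.4 and 13.6 CPM in D7G. Sp5, a Wnt target gene, fell 1.31-fold, from 99.3 and 109 CPM to 76.2 and 82.6 CPM (-0.39 ± 0.10, edgeR adjusted p = 0.0306). Wnt3a, a Wnt ligand of the tail bud, rose 1.48-fold, from 30.8 and 29.3 CPM to 45.7 and 43.2 CPM (0.56 ± 0.13, edgeR adjusted p = 0.0133), and D7 without Gdf11 had 45.3 and 47.4 CPM, so the same rise was called in the untreated day.

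Other defining genes of this state did not pass. T, the mesodermal factor brachyury, had 32.2 and 26.4 CPM at D6 and 25.6 and 29.1 CPM in D7G. Sox2, the neural partner of T in these cells, had 155 and 163 CPM at D6, 207 and 266 CPM at D7, and 144 and 156 CPM in D7G. Nkx1-2, a caudal epiblast marker, had 23.1 and 21.1 CPM at D6 and 16.1 and 16 CPM in D7G (-0.46, edgeR adjusted p = 0.154). All 3 genes and Cdx2 had counts in every library of both groups. Among the 5 caudal genes that fell, the calls of Cdx2, Cdx1 and Sp8 were kept under all alternatives. That of Cyp26a1 was lost when its regions were limited to 10 kb (adjusted p up to 0.281). Sp5 and Wnt3a lost theirs without D6 replicate 1, without D6 replicate 2 and without D7G replicate 1, at an adjusted p of up to 0.310 and 0.163, and Sp5 also lost it with DESeq2 and with regions limited to 10 kb.

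The Wnt list shares Cdx1, Sp5 and Wnt3a with the caudal list, and of its 19 genes 3 fell and 1 rose. The further loss was Axin2, a feedback inhibitor of Wnt signalling, from 180 and 185 CPM to 126 and 148 CPM (-0.42 ± 0.09, edgeR adjusted p = 0.0107). Its call was lost without D6 replicate 1, without D6 replicate 2 and without D7G replicate 1 (adjusted p up to 0.201), and with regions limited to 10 kb. Single regions in both directions lay at other Wnt genes: 1 inside Wnt5b, a ligand gene, rose 2.85-fold from 9.19 and 7.66 CPM to 21.9 and 26.8 CPM, with 8.91 and 7.95 CPM at D7. At Wnt5a, 2 regions fell, and 1 of them was also a loss from D6 to D7. Of 20 Fgf genes, 18 Notch genes, 20 BMP genes and 12 genes of epithelial-mesenchymal transition, 0 rose and 0 fell by edgeR and by DESeq2, with list medians from -0.12 to 0.02. With library size alone or cyclic loess, 1 BMP gene and 1 gene of the transition list rose. At an unadjusted p under 0.05, 891 genes were higher and 1827 lower over all tested genes. Single BMP regions did pass, such as 1 lying 25002 bp from Nog, an extracellular BMP antagonist, which rose 3.0-fold from 4.23 and 3.28 CPM to 9.62 and 13.5 CPM. At Bmpr1b, a BMP receptor gene, 3 regions rose and the promoter region fell.

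Of 20 genes of presomitic and paraxial mesoderm, 3 fell and 0 rose, with a median of -0.13. They were Meox1, a somite homeobox factor, Ripply1, a repressor at the somite boundary, and Pax1, a sclerotome factor. Meox1 had 48.3 and 44.2 CPM at D6, 66.6 and 70.3 CPM at D7, and 32.4 and 26.6 CPM in D7G. It fell 1.57-fold from D6 (-0.65 ± 0.15, edgeR adjusted p = 0.0127) and rose from D6 to D7. Ripply1 fell 1.68-fold (edgeR adjusted p = 0.0226) and Pax1 1.4-fold (edgeR adjusted p = 0.0468), and both lost their call without D6 replicate 1, without D6 replicate 2 and without D7G replicate 1, and Ripply1 also without D7G replicate 2, at an adjusted p of up to 0.160 and 0.435. Both lost it with DESeq2, and Pax1 also with library size alone, without mitochondrial regions and with regions limited to 10 kb. Meox1 lost its call without D6 replicate 1 and without D7G replicate 2 (adjusted p up to 0.173). Tbx6, a presomitic factor, had at most 0.879 CPM in the 4 libraries compared.

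Of 20 genes of neural progenitors and spinal cord, 4 fell and 0 rose, with a median of -0.20. Neurog2, a proneural factor, had 178 and 156 CPM at D6, 206 and 196 CPM at D7, and 96.0 and 109 CPM in D7G. It fell 1.63-fold (-0.70 ± 0.09, edgeR adjusted p = 2.57e-05), under all alternatives. Its regions 3585 bp and 6633 bp from the gene fell 2.43-fold and 2.94-fold. Olig2, a motor neuron progenitor factor, fell from 85.5 and 90.3 CPM to 59.2 and 63.6 CPM (-0.52 ± 0.11, edgeR adjusted p = 0.00533). Lhx1 and Irx3, homeobox factors, fell 1.46-fold and 1.29-fold. The region 13078 bp from Lhx1, chromosome 11, 84538612 to 84539188, fell 6.87-fold, from 8.95 and 9.99 CPM to 1.69 and 0.969 CPM (edgeR adjusted p = 8.13e-07), with 6.30 and 10.9 CPM at D7. Lhx1, Irx3 and Olig2 lost their gene calls without D6 replicate 2 and without D7G replicate 1, Lhx1 and Irx3 also without D6 replicate 1, and Lhx1 also without D7G replicate 2, at an adjusted p of up to 0.249, 0.469 and 0.0818. All 3 lost them with regions limited to 10 kb (log2 -0.23, -0.19 and -0.16), Lhx1 and Irx3 with library size alone and with DESeq2, and Irx3 without mitochondrial regions, at an adjusted p of up to 0.633, 0.495 and 0.747. From D6 to D7, 9 of these 20 genes rose (against 3.58% of all tested genes), and 16 were lower in D7G than in D7 (against 11.2%).

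Hox genes, which give position along the body axis, did not pass the gene test from D6 in the Gdf11 cells, which leaves smaller changes possible. In the 12 tested genes of groups 1 to 4, the 14 tested genes of groups 5 to 9 and the 12 of groups 10 to 13, 0 rose and 0 fell by edgeR and by DESeq2. The medians were -0.17, -0.16 and 0.08, and the log2 change was above 0 in 2, 1 and 10 of these genes. With library size alone, cyclic loess or without D7G replicate 1, 1 gene of groups 5 to 9 rose. Without Gdf11, 7, 5 and 1 genes of these groups rose from D6 to D7 (3.58% of all tested genes did), and 12, 11 and 0 were lower in D7G than in D7 (11.2% of all were), while Hoxc11 was higher. Hoxa2 is an example, with 17.5 and 15.3 CPM at D6, 30.3 and 32.6 CPM at D7, and 17.3 and 18.3 CPM in D7G. Hoxc4 had 147 and 145 CPM at D6, 203 and 239 CPM at D7, and 114 and 130 CPM in D7G.

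Among the posterior genes, Hoxc11 had 14.4 and 15.0 CPM at D6, 11.7 and 13.4 CPM at D7, and 19.4 and 21.6 CPM in D7G. Its treated libraries lay above the other 4, and the change from D6 did not pass (0.48 ± 0.17, edgeR adjusted p = 0.158). Hoxd12 had 2.96 and 1.78 CPM at D6 and 6.08 and 5.60 CPM in D7G, and did not pass (1.24 ± 0.38, edgeR adjusted p = 0.0842). Hoxb8, of groups 5 to 9, had 41.9 and 33.2 CPM at D6 and 23.7 and 31.5 CPM in D7G (-0.46, edgeR adjusted p = 0.174). Over the 4 clusters, 1 of 232 tested regions rose and 4 fell, in the HoxA (1 lower of 49), HoxB (2 lower of 72), HoxC (0 of 62) and HoxD (1 higher and 1 lower of 49) spans. The gain lay inside Hoxd8 and went from 10.3 and 9.30 CPM to 13.2 and 24.1 CPM.

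**Figure D4:**
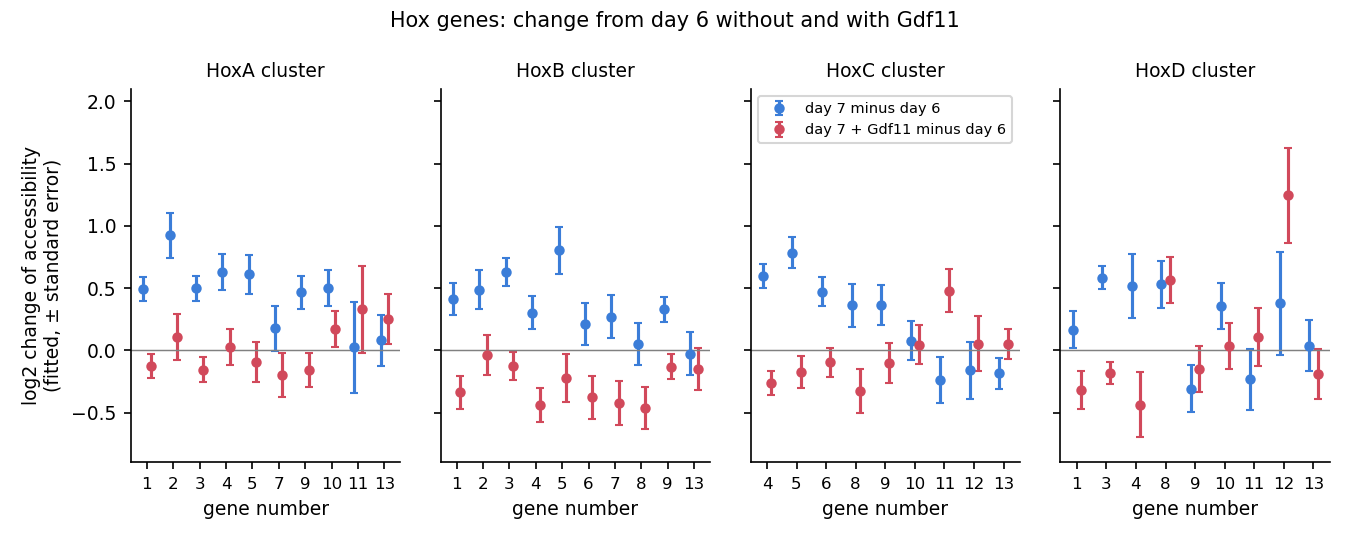
Fitted log2 change of accessibility from D6 (± standard error) for each tested Hox gene, in 4 panels by cluster; blue is D7 without Gdf11 and red is D7G. For all 12 genes of groups 1 to 4 the blue point lies above 0 and above the red point, as for Hoxa2 at 0.92 and 0.11.

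The trunk-to-tail list held 18 genes, of which 3 fell and 0 rose (median -0.23): Cyp26a1, Lin28a and Rarg. Lin28a, which encodes an RNA-binding protein, fell 1.58-fold, from 75 and 75.4 CPM to 44.2 and 51.0 CPM (-0.66 ± 0.11, edgeR adjusted p = 0.000459), and was lower than at D7. Rarg, a retinoic acid receptor, fell 1.38-fold (edgeR adjusted p = 0.0216). Nr6a1, a nuclear receptor of trunk formation, did not pass as a gene, with 265 and 237 CPM at D6 and 256 and 260 CPM in D7G, while 2 of its regions moved in opposite directions. The region at chromosome 2, 38880958 to 38881651 fell 2.98-fold, from 33.8 and 28.3 CPM to 10.3 and 10.7 CPM, with 29.9 and 30.6 CPM at D7. The region at 38823935 to 38824501 rose 1.63-fold and rose from D6 to D7 as well. Rarg lost its call without D6 replicate 1, without D6 replicate 2 and without D7G replicate 1 (adjusted p up to 0.144), and with DESeq2.

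Of 16 genes of the retinoic acid pathway, Cyp26a1 and Rarg fell and 0 rose, and 7 rose from D6 to D7. Of 20 pluripotency and epiblast genes, Lin28a, Sall4 and Utf1 fell. Sall4, a zinc finger factor of stem cells, fell from 141 and 126 CPM to 92.3 and 106 CPM (-0.44 ± 0.09, edgeR adjusted p = 0.00745), and Utf1 fell 1.45-fold (edgeR adjusted p = 0.0246). Sall4 lost its call without D6 replicate 1 and without D7G replicate 1, and Utf1 without D6 replicate 1, without D6 replicate 2 and without D7G replicate 2, at an adjusted p of up to 0.207 and 0.294, and Utf1 also with DESeq2. Of 18 housekeeping genes 0 passed, with a median of -0.12.

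Markers of other cell types were counted as well. Of 15 endoderm markers 2 fell and the summed level was 531 and 529 CPM at D6 and 442 and 449 CPM in D7G. Ttr, which encodes the carrier protein transthyretin, had 48.2 and 42.7 CPM at D6 and 30.6 and 29.2 CPM in D7G (edgeR adjusted p = 0.0138). Of 13 tested lateral plate, heart and blood markers, Kdr, the Vegf receptor gene, fell 1.52-fold (edgeR adjusted p = 0.00953), and the summed level was 581 and 593 CPM at D6 and 525 and 576 CPM in D7G. Of 10 neural crest markers, Ets1 rose 1.24-fold (edgeR adjusted p = 0.0419), with summed levels of 577 and 551 CPM at D6 and 574 and 583 CPM in D7G. Ets1 also rose from D6 to D7 (0.33, edgeR adjusted p = 0.0136), and D7G did not differ from D7 beyond the test (-0.03).

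Of 14 fibroblast markers, Col3a1 and S100a4 rose, and 0 fell. Col3a1, a collagen gene, had 31.8 and 28.7 CPM at D6 and 44.5 and 50.5 CPM in D7G. S100a4 had 0.879 and 1.64 CPM at D6 and 3.04 and 7.32 CPM in D7G over 2 regions. The summed level of the list was 472 and 446 CPM at D6, 503 and 536 CPM at D7, and 482 and 510 CPM in D7G, no marker was at 0, and the defining genes Col1a1, Dcn and Lum did not pass. The part of fibroblasts in the gains was not tested. Kdr, Ets1, Col3a1 and S100a4 lost their calls without D6 replicate 1 and without D6 replicate 2, with adjusted p values of up to 0.177, 0.381, 0.137 and 0.385 over all alternatives. Kdr and Ets1 also lost theirs without D7G replicate 1, and Ets1, Col3a1 and S100a4 without D7G replicate 2 and with regions limited to 10 kb, and S100a4 also with DESeq2. Ttr lost its call without D6 replicate 1 and without either D7G library (adjusted p up to 0.244), and with regions limited to 10 kb its log2 change was -0.03 (adjusted p = 0.988).

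Outside the lists, the genes with the largest change among well-covered genes were read next. Those that rose were Gm40514, Slitrk6, Gas2, Iftap, Oxct1, Pdlim3, Sumf1 and Tnrc6a, by 1.53-fold (Tnrc6a) to 2.05-fold (Gm40514). Gm40514 had 27.0 and 27.6 CPM at D6, 31.3 and 35.4 CPM at D7, and 50.8 and 61.1 CPM in D7G (1.03 ± 0.14, edgeR adjusted p = 2.57e-05), and its call was lost with regions limited to 10 kb (adjusted p = 0.0652). Gas2, a cytoskeletal protein gene, had 32.0 and 35.8 CPM at D6, 30.6 and 34.2 CPM at D7, and 52.1 and 57.6 CPM in D7G. Slitrk6, a neuronal membrane protein gene, and Iftap also rose from D6 to D7 and did not differ beyond the test from D7. Oxct1, an enzyme of ketone body use, and Tnrc6a, a protein of microRNA silencing, kept their calls under all alternatives.

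The largest losses of this kind were Slco1c1, Samsn1, Cd36, Gpr12, Cyp24a1, Timp3, Ash1l and Aplnr, by 1.62-fold (Aplnr) to 1.89-fold (Slco1c1). Slco1c1, a thyroid hormone transporter gene, and Cyp24a1, which breaks down vitamin D, also fell from D6 to D7. Slco1c1 had 44.4 and 41.2 CPM at D6, 24.0 and 29.9 CPM at D7, and 23.6 and 21.6 CPM in D7G. With regions limited to 10 kb, Slco1c1, Samsn1 and Cd36 lost their calls (adjusted p = 0.73, 0.853 and 0.138). Timp3, an inhibitor of metalloproteases, had 86.8 and 74.0 CPM at D6, 75.6 and 84.4 CPM at D7, and 46.1 and 52.2 CPM in D7G, and 3 of its 13 regions fell. Its call was kept under all alternatives. Without D6 replicate 1, Gas2, Iftap, Pdlim3, Sumf1, Gpr12, Cyp24a1, Ash1l and Aplnr lost their calls, with adjusted p values from 0.0716 (Aplnr) to 0.318 (Cyp24a1) at the most over all alternatives. Iftap and Pdlim3 also lost theirs without D6 replicate 2 and without D7G replicate 2, and Sumf1, Cyp24a1 and Ash1l without D7G replicate 1. Slitrk6 lost its call without D6 replicate 2 and without D7G replicate 2 (adjusted p up to 0.132), and Slitrk6, Sumf1 and Cyp24a1 also lost theirs with regions limited to 10 kb.

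Genes with the most changed regions were read as well, some of which passed as a whole and some not. Over all tested regions, 1.06% rose and 1.34% fell, and these genes were chosen for their counts. Frmd4a had 7 of 88 tested regions higher, Dnm3 6 of 57, Nfia 6 of 67, Atp10a 5 of 21 and Nrxn3 5 of 109, and the gene sums of Frmd4a and Nrxn3 did not pass. These are long genes, and a longer gene holds more tested regions. The sum of Dnm3 passed as a gain both from D6 to D7 (0.52) and from D6 to D7G (0.32), and D7G did not differ from D7 beyond the test. Atp10a, a phospholipid flippase gene, went from 94.0 and 91.4 CPM to 134 and 147 CPM (0.60 ± 0.09, edgeR adjusted p = 0.000252). Tenm2, a teneurin adhesion gene, had 5 regions higher and 5 lower of 77, and its sum went from 352 and 325 CPM to 308 and 342 CPM. Rnf220, a ubiquitin ligase gene, had 7 of 42 regions lower and fell as a gene from 287 and 276 CPM to 196 and 184 CPM (-0.57 ± 0.08, edgeR adjusted p = 5.87e-05). Robo2 had 7 of 90 lower, Tenm4 7 of 103, Auts2 5 of 110, Lrmda 5 of 65 and Macrod2 5 of 133, and of these the sum of Auts2 passed (-0.34, edgeR adjusted p = 0.00505) and the other sums did not. The gene calls of Dnm3, Nfia and Auts2 were lost without D6 replicate 1, those of Dnm3 and Nfia also without D6 replicate 2 and D7G replicate 2, and those of Nfia and Auts2 without D7G replicate 1, at an adjusted p of up to 0.32, 0.273 and 0.13. Atp10a and Rnf220 kept theirs under all alternatives.

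The single gains of largest fold had few counts at D6. That largely follows from choosing them by fold with a least level in the higher group only. A region inside Tram2, chromosome 1, 21041028 to 21041405, had 0.559 and 0 CPM at D6, 1.89 and 1.62 CPM at D7, and 8.78 and 10.1 CPM in D7G (4.73 ± 0.56, edgeR adjusted p = 1.6e-07). A region inside Trip11, chromosome 12, 101868043 to 101868328, had 0 and 0.547 CPM at D6 and 6.50 and 7.86 CPM in D7G. A region inside Mctp1, chromosome 13, 77003779 to 77004085, had 0.240 and 0.274 CPM at D6, 0.180 and 0.736 CPM at D7, and 5.15 and 6.57 CPM in D7G. The D6 counts were 7 and 0 at the Tram2 region, 0 and 4 at Trip11, and 3 and 2 at Mctp1, so their fold is loosely set. Like regions lay far from genes, 677844 bp from Tlr4 and 908192 bp from Unc5d. Their D6 counts were 4 and 1, and 6 and 1, so the same holds for them. A region inside Thsd7a, chromosome 6, 12358711 to 12359136, had 0.639 and 0.547 CPM at D6, 2.07 and 6.04 CPM at D7, and 8.44 and 12.3 CPM in D7G. It was a gain in both comparisons and higher in D7G than in D7 (edgeR adjusted p = 0.023). The 5 other gains of this kind did not pass from D6 to D7 and were higher in D7G than in D7.

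The strongest single losses lay near Hdac2, Nbea, Slc4a7, Emp1, Slc24a3 and Hsf2. The region 15749 bp from Emp1, chromosome 6, 135346380 to 135346801, had 15.0 and 14.1 CPM at D6, 4.5 and 4.86 CPM at D7, and 1.10 and 2.15 CPM in D7G. It fell 9.15-fold (-3.19 ± 0.34, edgeR adjusted p = 1.02e-08), fell from D6 to D7 as well and was lower still than at D7. The region 310218 bp from Nbea, chromosome 3, 56493966 to 56494310, had 5.59 and 8.35 CPM at D6, 7.11 and 7.36 CPM at D7, and 0.844 and 0.431 CPM in D7G. There D7 stayed at the D6 level, and the loss was seen with Gdf11 and passed against D7 (edgeR adjusted p = 1.18e-06). The regions near Slc4a7 and Hsf2 did not pass against D7 (edgeR adjusted p = 0.169 and 0.0694). All these losses kept their call in every alternative run, and of the gains the one near Tlr4 lost it under 1.

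Genes whose accessibility moved in opposite directions were read last. From D6, 16 genes rose at D7 without Gdf11 and fell at D7 with it, and 0 genes did the reverse. Over all tested genes the median log2 change was 0.05 from D6 to D7 and -0.05 from D6 to D7G. The part of this shift, and of the scaling, in the direction was not tested. Both changes use the same D6 libraries, and a lower level in D7G than in D7 follows from the choice of these genes. Among them were Foxb1, a forkhead factor of the neural tube, Meis3, a Hox cofactor, Prtg, the adhesion protein protogenin, and Greb1l. Foxb1 had 107 and 104 CPM at D6, 150 and 176 CPM at D7, and 77.1 and 80.9 CPM in D7G. Prtg had 244 and 228 CPM at D6, 291 and 316 CPM at D7, and 168 and 171 CPM in D7G (-0.48 ± 0.08 from D6, edgeR adjusted p = 0.000558). Meis3 had 78.5 and 73.9 CPM at D6, 94.7 and 115 CPM at D7, and 47.3 and 58.4 CPM in D7G. For these 3 genes no D7G library overlapped a D6 library and no D6 library a D7 library. The first held for all 117 genes that rose and all 241 that fell from D6 to D7G. The alternatives given here concern the fall from D6 to D7G, and those for the rise from D6 to D7 are not given. Prtg, Smoc1 and Thsd4 kept their calls in D7G against D6 under all alternatives. Foxb1, Meis3 and Greb1l lost theirs without D6 replicate 1 and without D7G replicate 1, and Foxb1 and Greb1l also without D6 replicate 2, at an adjusted p of up to 0.162, 0.234 and 0.329. Greb1l also lost its call with library size alone, with DESeq2 and without mitochondrial regions. Eml1 and Fat3 lost theirs with library size alone, and Eml1, Tnfrsf19 and Wfikkn1 with DESeq2. With regions limited to 10 kb, Eml1, Tnfrsf19, Sox13 and Slc2a1 lost theirs. Zbtb16, Tnfrsf19, Eml1, Fat3, Fignl2, Metrn, Sox13, Wfikkn1, Slc2a1 and Meox1 each lost theirs without 1 or more single libraries (adjusted p of up to 0.0772 for Metrn and up to 0.509 for Slc2a1 over all alternatives).

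**Figure D5:**
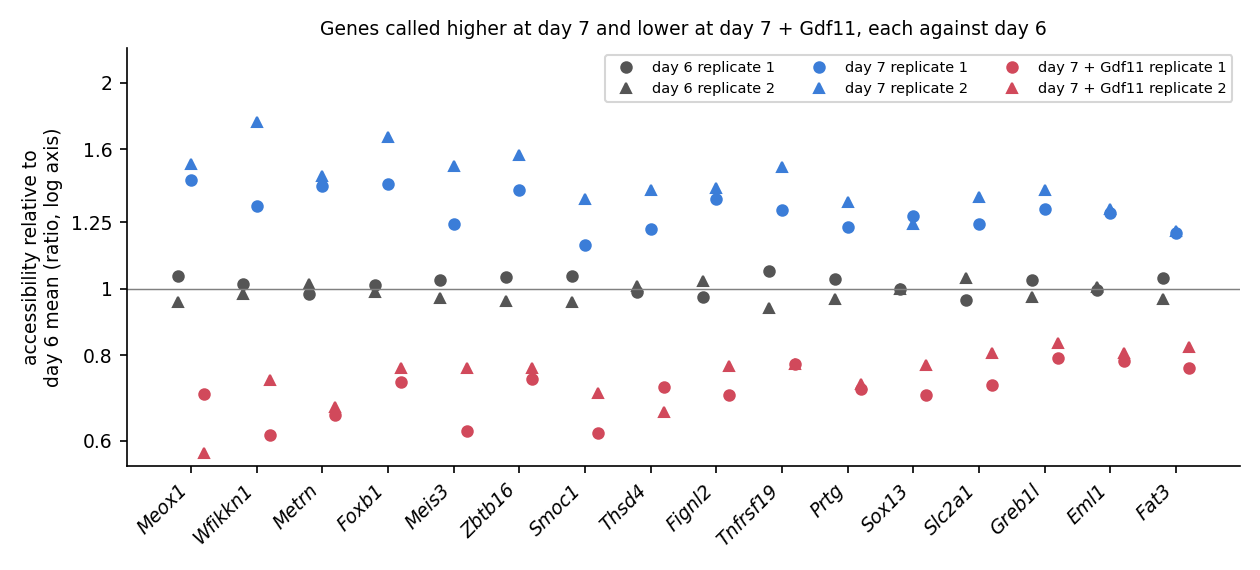
Accessibility of the 16 genes of opposite change, per library, relative to the mean of the D6 libraries (ratio on a log axis); grey is D6, blue D7 and red D7G, circles replicate 1 and triangles replicate 2. All blue points lie above 1 and all red points below it.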

How the data were processed

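The cells, groups and merged regions were as described above. Per the labels and values, the authors deposited raw read counts for the merged regions without positions. Regions were rebuilt by merging the 10 deposited peak lists, and in character order of chromosomes their number equalled that of the deposited count rows. In that order 0 of the regions holding a library's own peak had 0 counts in that library. The deposited peak lists give, per peak and library, a fold enrichment ratio and −log10 p and q values. The authors' deposited motif tables give percent of sequences with a motif and a score, and their target choice is not stated. HISAT2 2.1.0, SAMtools, MACS2 2.1.1.20160309, bedtools, HOMER 4.10 and mm10 are named in the submitters' processing notes, with no role or order.

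Total counts were 12335735 and 7403576 at D6, 11576260 and 7501320 at D7, and 10927890 and 9285217 in D7G, and mitochondrial regions held 9.62% to 12.3% in the D6 and D7G libraries. Replicates of each group differed by more than sampling noise (chi-square per degree of freedom 2.43 to 2.55), and all were kept. Counts of all 10 libraries were fitted by group with edgeR 4.0.16 in R 4.3.3 (TMM scaling, filterByExpr, quasi-likelihood test, Benjamini-Hochberg adjustment over all tested features, threshold 0.05). SEs were derived from the F statistic. A region was assigned to the nearest protein-coding gene within 50 kb (RefSeq table of GRCm38.p6), and a gene's count is the sum over its regions. The filter removed 73624 regions and 530 genes. CPM use TMM-scaled library sizes. The steps were tested on simulated data.

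Members and gene lists were chosen with earlier results of these data known. Named were Cdx2 and Pmepa1, up to 4 passing genes per list by p, 8 genes per direction outside the lists by size of change (above median abundance, at least 2 tested regions, no overlap), 6 regions per direction by size of change (at least 5 CPM in the higher group, at most 1 per gene), and the 6 genes per direction with the most changed regions. Other genes and regions, including single regions of list genes, the printed promoters, the Hox examples, the genes that did not pass and the genes of opposite change, were chosen after their values were seen. The main fit used no pairing by replicate number. Deviations from group means in same-numbered D6 and D7G libraries had a correlation of 0.00228 over the tested regions. Many of these regions had low counts, so this value cannot exclude a shared replicate effect. Alternatives were library size alone, cyclic loess, DESeq2 1.42.0, other filters and windows, fewer libraries and a replicate block. A genome sequence was not used here, so regions outside promoter windows are given by position. Some results are not reported here.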

Additional observations from a re-analysis of the deposited data

Results flagged for a closer look

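Of the genes called from D6 both with and without Gdf11, 16 changed in opposite directions, rising from D6 to D7 without Gdf11 and falling from D6 to D7G. The difference was computed as D7G against D7 in the same fit, and since the genes were chosen for both changes from the same D6 libraries, its direction follows from that choice and its values are a description. The log2 difference between D7G and D7 was -1.21 for Meox1, a somite homeobox factor, -1.18 for Wfikkn1, a secreted protein known to bind Gdf8 and Gdf11, and -1.12 for Metrn, a secreted neurotrophic factor. It was -1.04 for Foxb1, -0.99 for Meis3, -0.98 for Zbtb16, -0.93 for Smoc1 and -0.92 for Thsd4. It was -0.91 for Fignl2, -0.86 for Tnfrsf19, -0.84 for Prtg, -0.78 for Sox13, -0.77 for Slc2a1, -0.73 for Greb1l, -0.71 for Eml1 and -0.61 for Fat3. Over all tested genes the median of this difference was -0.10. Groups of 2 libraries are too small for a check of single libraries that stand apart.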

How the results depend on the processing

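Named genes gave 828 values under alternatives, of which 670 stayed on the same side of the threshold in the same direction, 155 fell short of it, 3 newly passed and 0 reversed, and of 131 values for named regions 130 stayed. The counts moved more. DESeq2 called 1941 regions (787 higher, 1154 lower), all among those called by edgeR, and 200 genes (121 lower). Of the gained regions it then called 115 also from D6 to D7 and 253 against D7, and of the lost regions 40 and 646. Its gene counts were 28 gains that differed from D7, 5 losses also seen from D6 to D7 and 86 losses that differed, with 13 list genes lower. With the 4 libraries of D6 and D7G alone, 7278 regions passed (3820 higher), and 569 genes (217 higher). With 6 libraries (D6, D7 and D7G), 540 gains and 252 losses of regions were shared with D7 against D6, and 1542 and 1906 differed from D7. The gene counts there were 50 gains and 50 losses shared, and 151 and 262 differing. Library size alone gave 257 genes higher, of which 163 differed from D7, 71 losses that differed, and 12 list genes higher. Cyclic loess gave 551 genes (300 higher), 35 gains shared with D7 against D6, 168 gains and 103 losses that differed, and 12 list genes higher. Limiting genes to 10 kb gave 198 genes (71 higher, 127 lower). At an unadjusted p under 0.05, an alternative chosen after seeing the data, 21508 regions passed (10513 higher, 10995 lower).

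With the replicate block, 1005 genes passed (306 higher, 699 lower), 52 gains and 69 losses were shared with D7 against D6, 141 and 455 differed from D7, 13 list genes rose and 39 fell, and 146 lost regions were shared with D7 against D6. The labels do not say what same-numbered libraries share, and the part of a shared replicate effect in these counts was not tested.

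Leaving out 1 library gave 1541 to 2476 changed regions (568 to 989 higher, 747 to 1607 lower). Gains shared with D7 against D6 ran from 77 to 175 and those differing from D7 from 185 to 453, and losses from 21 to 83 and from 474 to 989. For genes the counts ran from 68 to 278 (25 to 54 higher, 43 to 247 lower). Gene gains shared ran from 2 to 10 and differing from 13 to 29, gene losses from 2 to 20 and from 35 to 201, and list genes from 1 to 6 higher and from 8 to 24 lower. No other count moved by over 1.5 times. The cause of these moves was not tested, beyond fewer libraries in the fits that leave one out. In simulated data for D7G against D6 over 173175 regions, 4% of 2-fold and 80% of 4-fold gains were recovered. Of losses of the same size, 0% and 30% were recovered. Only 50 regions were changed at each fold there, and 1 common spread was used for all regions. That setting differs from the data, so these shares do not carry over to the calls above. The part of depth in the calls was not tested.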

Other observations

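The authors' deposited motif tables cover D6 to D7 and D7 to D7G, and not D6 to D7G, and their choice of regions is not stated, so they are given only as values beside the present comparison. For regions up from D7 to D7G, the authors' deposited table ranks the Jun-AP1 motif 1, found in 28.1% of target sequences and 4.86% of background. In the same authors' deposited table the Smad4 motif ranks 11, with 58.1% of targets and 37.7% of background. For regions down from D7 to D7G, the authors' deposited table ranks Sox2 1, with 51.8% of targets and 22.6% of background, Hoxc9 8, with 27.0% and 10.8%, and LEF1 10, with 34.5% and 17.9%. For regions up from D6 to D7, the authors' deposited table ranks Sox3 1, with 75.3% of targets and 45.2% of background.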
